A study of Danio rerio with 6 samples.

Results

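The pituitary hormone genes described here are 8 of the 35197 gene rows of an RNA sequencing count table from zebrafish embryos, taken by symbol. They are the hormone genes prl, gh1, smtla, smtlb, cga, tshba and pomca and the transcription factor gene pou1f1. The table compares embryos homozygous for a dnajc21 mutation (3 libraries) with wildtype embryos (3 libraries), all untreated whole embryos at 48 hours post-fertilization, each library a pool of 30 to 50 embryos. Dnajc21 is a J-domain co-chaperone that acts in the maturation of the large ribosomal subunit. The labels give neither the lesion nor the strain background of the mutants, while the wildtype columns are headed casper, the name of a zebrafish strain that lacks most pigment. If the backgrounds differ, differences by dnajc21 genotype and by strain background cannot be told apart in any value below. Separate clutches for the pools are not stated, and the p-values below cover only library-to-library spread, which may be technical in part.

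The anterior pituitary of fish arises from the placodal ectoderm in front of the brain and begins to make hormones in the first days of development. Its cell types are defined by the hormone they secrete. Prolactin, growth hormone and the somatolactins are related single-chain hormones, thyroid stimulating hormone pairs a shared alpha chain with its own beta chain, and the pomca product is cut into corticotropin and melanocyte-stimulating hormone. The factor Pou1f1, also called Pit1, is needed in zebrafish for the cells that make prolactin, growth hormone and thyroid stimulating hormone, whereas corticotropes form without it.

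Total counts ran from 9826927 to 11798543 in mutant and from 8600951 to 10635686 in wildtype libraries. The dnajc21 transcript measured 18.0 ± 1.48 CPM (counts scaled to the library total) in mutant and 26.1 ± 4.27 CPM in wildtype embryos (SD, n = 3 each), and its log2 fold change was -0.55 (adjusted p = 0.00492 in the quasi-likelihood test of edgeR). Of the pan-neuronal markers elavl3, elavl4, snap25a, snap25b, gap43, stmn2a and syt1a, all 7 were measured, and neurons were thus represented in the whole-embryo RNA. Among markers of the pituitary anlage, hesx1 had 0 to 3.10 counts per library, lhx3 was not analysed here, and pitx3, which the lens also uses, had 143 to 187 counts.

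The hormone genes were at the lower edge of what these libraries can measure, and no difference between mutant and wildtype embryos passed the test for any member. Over all 6 libraries together, prl had 408 counts and the other members had 7 to 59. Only prl and pou1f1 passed the filter on low counts (minimum count 10). For these members, edgeR called 0 of 2 at an adjusted p under 0.05, with 0 at an unadjusted p under 0.05, beside 11.7% of all 20229 genes tested. A second fit without the filter held all 8 members. There edgeR again called 0, with 0 at an unadjusted p under 0.05, beside 8.55% of 30689 rows. Of the 10460 rows held by that fit alone, as are the members below the filter, edgeR called 1.66%. With so few members, 0 calls cannot be told from these shares. DESeq2 and limma-voom each called 0 members in either fit, and DESeq2 gave an adjusted p for 6 of the 8. Where a library had a count of 0, up to 3 counts are compatible with it, which is 0.253 to 0.307 CPM in mutant and 0.276 to 0.351 CPM in wildtype libraries, and this limit covers counting error alone. In bulk RNA, fewer cells of a type and less RNA per cell cannot be told apart.

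**Figure D1:**
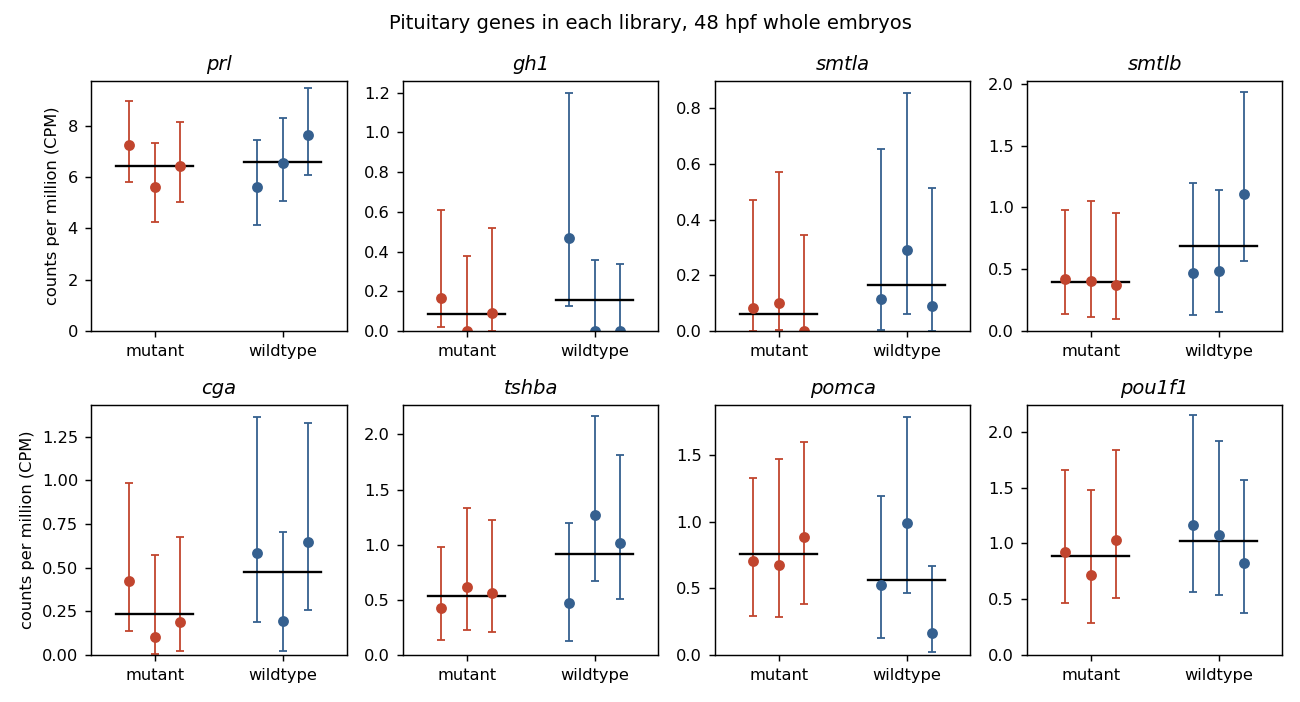
Level of each of the 8 members in CPM, by library, with mutant libraries to the left of wildtype libraries. Points are libraries, bars their exact 95% Poisson intervals from the count, and black lines group means. For prl the libraries of both groups lie between 5.62 and 7.64 CPM, and for every other member the intervals of single libraries are wide.

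Prolactin was the member measured best. The prl gene, whose hormone governs ion uptake through the skin and gills of fish in fresh water, had 86, 55 and 69 counts in mutant replicates 1 to 3, against 48, 67 and 83 counts in wildtype replicates 1 to 3. Scaled for depth these were 7.25, 5.63 and 6.45 CPM in mutant and 5.62, 6.53 and 7.64 CPM in wildtype libraries. The groups overlapped along nearly their whole range, with a wildtype library at the lowest and another at the highest value. Means were 6.44 ± 0.808 CPM in mutant and 6.60 ± 1.01 CPM in wildtype embryos (SD, n = 3 each). The log2 fold change was -0.037 (SE 0.17, edgeR adjusted p = 0.926). The 95% interval of the change ran from -0.40 to 0.32 on the log2 scale, or 0.758-fold to 1.25-fold. The coefficient of variation between libraries was 12.5% in mutant and 15.4% in wildtype embryos, and counting alone gives 12.0% in mutant and 12.3% in wildtype libraries. The spread of prl between pools was therefore close to its counting error. In the RefSeq annotation of assembly GRCz12tu the prl gene overlaps the long non-coding gene si:dkey-16p21.8, which had 193 ± 5.91 CPM in mutant and 205 ± 14.9 CPM in wildtype embryos. Both rows had whole counts in all 6 libraries. The overlap is that of GRCz12tu, not of danRer11, the build named for the counts, and whether counting used strand is not given in the sources used here.

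The relatives of prolactin were close to the detection limit. The growth hormone gene gh1 had 2, 0 and 1 counts in mutant and 4, 0 and 0 counts in wildtype replicates 1 to 3. It was thus undetected in 1 mutant and 2 wildtype libraries, and all wildtype reads came from replicate 1. The somatolactin alpha gene smtla had 1, 1 and 0 counts in mutant and 1, 3 and 1 counts in wildtype replicates 1 to 3. Both genes averaged 3 counts or fewer per library in each group, so no fold change is given, and a difference was not detectable at this depth (edgeR adjusted p without the filter 0.880 for gh1 and 0.661 for smtla).

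Of the 8 members, somatolactin beta was the only one whose groups did not overlap. The smtlb gene had 5, 4 and 4 counts in mutant replicates 1 to 3, against 4, 5 and 12 counts in wildtype replicates 1 to 3. In CPM these were 0.421, 0.409 and 0.374 in mutant and 0.468, 0.487 and 1.11 in wildtype libraries. The wildtype libraries all lay higher, but replicates 1 and 2 by less than the value of a single count, and the difference in means, 0.402 ± 0.0246 CPM in mutant against 0.687 ± 0.362 CPM in wildtype embryos, came mostly from wildtype replicate 3. Groups did not overlap in 23.8% of the rows in the unfiltered fit, and in 12.1% of them the mutant libraries were the lower ones. The log2 fold change was -0.78 (SE 0.66, 95% interval -2.11 to 0.55, edgeR adjusted p = 0.573), and -0.24 without wildtype replicate 3. In the same RefSeq annotation smtlb overlaps kirrel3a, an adhesion molecule gene, which had 5.96 ± 1.13 CPM in mutant and 6.18 ± 1.14 CPM in wildtype embryos.

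Both chains of thyroid stimulating hormone gave few reads. The alpha chain gene cga, whose product is shared with the gonadotropins, had 5, 1 and 2 counts in mutant and 5, 2 and 7 counts in wildtype replicates 1 to 3. The summed count was 8 in mutants (exact 95% Poisson interval 3.45 to 15.8) and 14 in wildtype libraries (7.65 to 23.5). Scaled for depth, the summed counts were 0.247 CPM in mutant and 0.472 CPM in wildtype libraries. The Poisson intervals overlap, but they cover counting error alone and their overlap is no test of the difference. The log2 fold change was -0.93 with a 95% interval from -2.69 to 0.83 (edgeR adjusted p = 0.627). Leaving out mutant replicate 1 moved it to -1.62, and leaving out mutant replicate 2 or wildtype replicate 3 to -0.60 and -0.61.

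The beta chain gene tshba, which gives the hormone its receptor specificity, had 5, 6 and 6 counts in mutant replicates 1 to 3, against 4, 13 and 11 counts in wildtype replicates 1 to 3. Wildtype replicate 1, at 0.468 CPM, lay within the mutant range of 0.421 to 0.614 CPM, and wildtype replicates 2 and 3 lay above it at 1.27 and 1.01 CPM. Of all members tshba had the lowest unadjusted p without the filter, 0.171, with an adjusted p of 0.492 in edgeR. The log2 fold change was -0.80 (SE 0.58, 95% interval -1.96 to 0.36), and a fall to 0.257-fold remained within its interval. Leaving out wildtype replicate 2 moved it to -0.51.

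**Figure D2:**
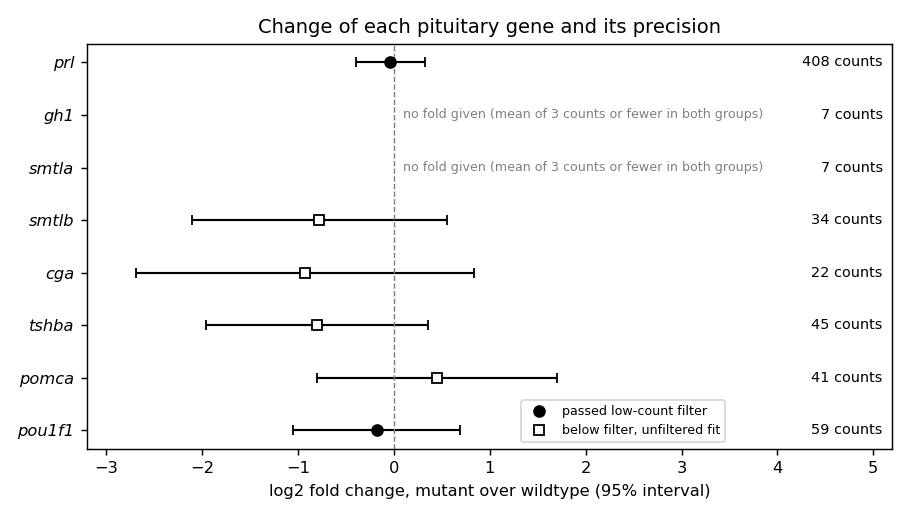
Log2 fold change of each member, mutant over wildtype, with its 95% interval from edgeR; filled circles passed the low-count filter, open squares come from the fit without it, and the number at the right is the summed count over 6 libraries. All intervals drawn include 0, and that of prl, from -0.40 to 0.32, is the narrowest.

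The corticotrope and melanotrope gene pomca had a value in the other direction. It had 8.38, 6.63 and 9.45 counts in mutant replicates 1 to 3, against 4.5, 10.18 and 1.75 counts in wildtype replicates 1 to 3. The mutant libraries lay together at 0.679 to 0.884 CPM, inside the wildtype range of 0.161 to 0.992 CPM. The log2 fold change was 0.45 (SE 0.62, 95% interval -0.80 to 1.70, edgeR adjusted p = 0.739), 1.21 without wildtype replicate 2 and 0.03 without wildtype replicate 3. Its counts were not whole in any of the 6 libraries (tolerance 0.005), a sign that the counting program divided reads among rows, and it was the only member with such counts. In the RefSeq annotation pomca overlaps LOC100537549, which had 0 to 1.65 counts per library, and 0 of the 35196 other rows complete the pomca counts to whole numbers in all 6 libraries (tolerance 0.011). The pomca level is therefore uncertain.

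The transcription factor gene pou1f1 was low in all libraries. It had 11, 7 and 11 counts in mutant and 10, 11 and 9 counts in wildtype replicates 1 to 3, or 0.891 ± 0.159 CPM in mutant and 1.02 ± 0.176 CPM in wildtype embryos (SD, n = 3 each). The groups overlapped, and the coefficient of variation, 17.9% in mutant and 17.2% in wildtype libraries, was below what counting alone would give, 32.2% in mutant and 31.6% in wildtype libraries. The log2 fold change was -0.18 (SE 0.41, 95% interval -1.05 to 0.69, edgeR adjusted p = 0.837), an interval that spans 0.482-fold to 1.62-fold. Leaving out mutant replicate 2 gave -0.057 and leaving out mutant replicate 3 gave -0.29. The value was -0.080 with wildtype replicate 1 left out and -0.32 with wildtype replicate 3 left out.

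Added together, the 7 hormone genes gave 277.46 counts in mutant and 286.43 counts in wildtype libraries, of which prl made up 75.7% in mutant and 69.1% in wildtype libraries. These are shares of reads, which are not adjusted for transcript length, so levels were not compared between genes. The summed level was 9.47, 7.54 and 8.55 CPM in mutant replicates 1 to 3 and 8.25, 9.77 and 10.7 CPM in wildtype replicates 1 to 3, and the groups overlapped. Without prl, a sum formed after the values had been seen, it was 2.22, 1.91 and 2.10 CPM in mutant and 2.63, 3.23 and 3.02 CPM in wildtype libraries. Here every mutant library lay below every wildtype library, at means of 2.08 ± 0.159 CPM in mutant and 2.96 ± 0.304 CPM in wildtype embryos (SD, n = 3 each). This sum was chosen on these values and has no test. Among single rows of the unfiltered fit, 12.1% had all mutant libraries below all wildtype libraries. Of the 6 genes 5 had a lower mean in mutants, pomca being the exception, but gh1 and smtla were too low for a fold change. That tally comes from the same values and adds no support to the sum.

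**Figure D3:**
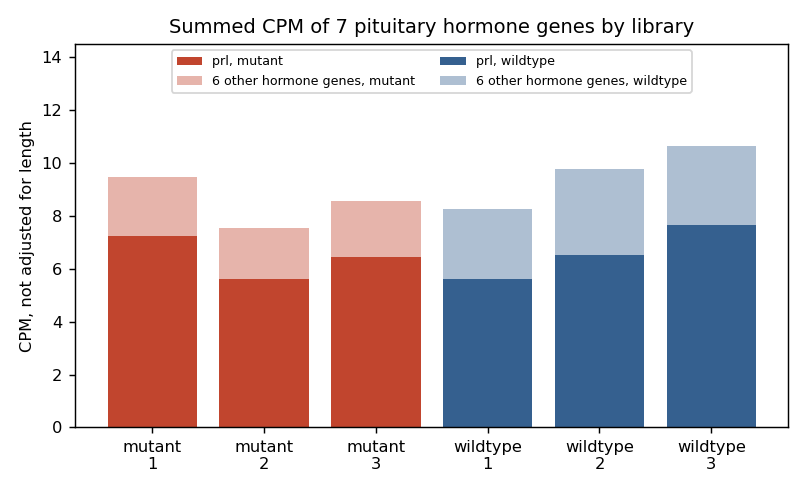
Summed CPM of the 7 hormone genes in each library, split into prl (full colour) and the 6 other genes (light colour), with mutant libraries on the left. The prl part varies within both groups, and the light part is 1.91 to 2.22 CPM in mutant and 2.63 to 3.23 CPM in wildtype libraries.

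Likeness in profile could be measured for few members. The log2 CPM of prl and pou1f1, the 2 members that passed the filter, had a Pearson r of -0.155 over 6 libraries, which at these counts is no finding. The genes closest to the mean standardized profile of these members were abhd10a, pcdh2g16, mul1b, n6amt1 and aipl2, with r of 0.972 to 0.990 over the 6 libraries. They are the highest of 15960 genes ranked, 73 of which had an r above 0.9, and the r is given as a description.

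Further genes listed for pituitary hormones and their subunits mostly fell below the filter on low counts. Whole-embryo RNA does not show which tissue made their transcripts. Of 7 rows, pomcb alone passed the filter and edgeR, DESeq2 and limma-voom called 0 (1 at an unadjusted p under 0.05 in edgeR). The pomcb gene, the second proopiomelanocortin copy of zebrafish, had 23, 19 and 25 counts in mutant replicates 1 to 3, against 8, 9 and 13 counts in wildtype replicates 1 to 3. All mutant libraries lay above all wildtype libraries, and of all tested genes 30.5% had groups that did not overlap. Means were 2.07 ± 0.229 CPM in mutant and 1.00 ± 0.170 CPM in wildtype embryos, with a log2 fold change of 1.03 (SE 0.34). The adjusted p was 0.0563 in edgeR, 0.0606 in limma-voom and 0.231 in DESeq2. Leaving out any 1 library gave 0.94 to 1.19, with adjusted p of 0.0819 to 0.204. Its counts were whole in all 6 libraries, unlike those of pomca. In the RefSeq annotation pomca lies between snx9a and efr3ba and pomcb between efr3bb and snx9b, so the copies sit among matching neighbours. Below the filter, avp had 3 to 10 counts and oxt 1 to 6 counts per library. The gonadotropin beta genes lhb and fshb had 0 and 1 counts over all libraries, and a second prolactin gene outside the lists, prl2, chosen after its values were seen, had 2 in mutant and 2 in wildtype libraries.

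Genes that act in pituitary development and process its hormones mostly passed the filter on low counts. Of 20 tested transcription factor genes of pituitary development 0 were higher and 2 lower in mutants, beside 5.85% higher and 5.87% lower of all genes tested, with a median log2 fold change of -0.04 against -0.006 over all genes tested. The called genes, neurod1 (-0.35, edgeR adjusted p = 0.0206) and isl1 (-0.30, adjusted p = 0.0213), are also widely used in neurons and retina, and the neurod1 call ended without 3 and the isl1 call without 4 of the single libraries. Of 13 tested genes of prohormone processing and dense core granules 0 were higher and 2 lower (median log2 fold change 0.006). The proSAAS gene pcsk1nl, for an inhibitor of the convertase Pcsk1, fell to 20.7 ± 1.39 CPM in mutants, against 29.6 ± 3.26 CPM in wildtype embryos (-0.52, adjusted p = 0.00235). The chromogranin gene chga fell to 11.7 ± 1.70 CPM in mutants, against 15.6 ± 0.647 CPM in wildtype embryos (-0.42, adjusted p = 0.0378), a call that ended without any 1 library except wildtype replicate 2. The convertase genes that cut proopiomelanocortin did not pass. The pcsk1 gene had 15.2 ± 1.31 CPM in mutant and 13.6 ± 1.19 CPM in wildtype embryos (adjusted p = 0.452), and pcsk2 had 13.8 ± 1.92 CPM in mutant and 11.7 ± 0.590 CPM in wildtype embryos (adjusted p = 0.286). Beside these counts, 3 of the 7 neuronal markers were also called lower, elavl4, snap25b and gap43. The others were not called, with log2 fold changes of 0.07 for elavl3, 0.08 for snap25a, 0.06 for stmn2a and -0.07 for syt1a. The sum of all 7 was 1189 to 1196 CPM in mutant and 1203 to 1227 CPM in wildtype libraries. The part of the neuronal markers in the result was not tested. Of the 4 markers of radial glia and neural progenitors her4.1 was called higher and fabp7a lower. The sum of all 4 was 595 to 643 CPM in mutant and 733 to 833 CPM in wildtype libraries. This lower sum came mainly from fabp7a, with means of 310 CPM in mutant and 503 CPM in wildtype embryos. The markers gfap and sox2 were not called, and their groups overlapped (log2 fold changes -0.04 and 0.05). The sum is therefore no measure of the number of these cells.

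Of 14 tested genes of the hypothalamic and releasing factor list 0 were higher and 2 lower (median log2 fold change 0.04). EdgeR thus called 14.3% of them, beside 11.7% of all genes tested. The gene trh, for thyrotropin-releasing hormone, had 16, 9 and 13 counts in mutant and 24, 21 and 25 counts in wildtype replicates 1 to 3. It fell by 1.01 on the log2 scale (edgeR adjusted p = 0.0492), and the call ended without any 1 library (0.0606 to 0.185). The nuclear receptor gene nr5a2, which is not a releasing factor, fell by 0.56 (adjusted p = 0.0378), a call that ended without 5 of the single libraries, with a value of -0.37 without wildtype replicate 2. DESeq2 and limma-voom called 0 of this list. Genes for the releasing factors of corticotropin and growth hormone were too low to test (crha and ghrh, 0 to 3 counts per library) or did not pass (crhb, -0.19, adjusted p = 0.835). Of 9 tested receptors of releasing factors edgeR, DESeq2 and limma-voom called 0 (0 at an unadjusted p under 0.05). With so few genes, 0 calls cannot be told from the 11.7% of all genes tested. The lowest p were those of the somatostatin receptor sstr5 (0.33, edgeR adjusted p = 0.323) and the dopamine receptor drd2a (0.38, adjusted p = 0.485). The drd2a value was 0.071 without mutant replicate 1, in which it had 42 counts, and 0.61 without mutant replicate 2.

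On the receiving side, 0 of 7 tested receptors of pituitary hormones were called by edgeR, DESeq2 or limma-voom (1 at an unadjusted p under 0.05 in edgeR). With so few genes, 0 calls cannot be told from the 11.7% of all genes tested that edgeR called. The prolactin receptor prlra had 6.70 ± 0.864 CPM in mutant and 5.50 ± 0.743 CPM in wildtype embryos (adjusted p = 0.332), and the melanocortin receptors mc5rb and mc5ra had log2 fold changes of 0.56 (adjusted p = 0.0966) and 0.59 (adjusted p = 0.238). The mc5ra value was 0.37 without wildtype replicate 1 and 0.95 without wildtype replicate 2 (adjusted p = 0.0748). The corticotropin receptor gene mc2r had 0 to 2 counts and the thyrotropin receptor gene tshr 0 to 3 counts per library. Of 10 growth hormone signalling genes the same tools called 0 (0 at an unadjusted p under 0.05), again too few genes to differ from the 11.7%. The igf2b gene was at 0.18 (edgeR adjusted p = 0.200) and the receptor gene ghrb at 0.19 (adjusted p = 0.304).

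Of 19 tested genes of interrenal steroid synthesis and glucocorticoid response 3 were higher and 0 lower, with a median log2 fold change of 0.25. EdgeR thus called 15.8% of them, beside 11.7% of all genes tested. The gluconeogenic gene pck1 rose to 59.1 ± 7.56 CPM in mutants, against 20.4 ± 4.95 CPM in wildtype embryos (1.55, SE 0.18, edgeR adjusted p = 0.00229). The transcription factor gene klf9 (0.79, adjusted p = 0.00523) and tsc22d3, for a leucine zipper protein (0.27, adjusted p = 0.0164), also rose, the last on a row with non-whole counts in all 6 libraries and with calls ending without mutant replicate 2 (0.0593) or 3 (0.0837). The co-chaperone gene fkbp5, named after its values were seen, had 102 ± 19.1 CPM in mutant and 65.0 ± 9.77 CPM in wildtype embryos (0.64, edgeR adjusted p = 0.0676). Its groups did not overlap, as was so for 30.5% of all genes tested. DESeq2 (adjusted p = 0.0202) and limma-voom (adjusted p = 0.0123) called it, each with 4 calls in the list. In edgeR it passed without mutant replicate 1 (0.0215) or 2 (0.0192) and with no other single library left out. The edgeR fit without robust weights also called it (0.0114), but not that with the replicate block (0.311) or without the filter (0.153). These 4 genes are glucocorticoid targets in mammals, and each also responds to other signals. Not all genes of the list rose. The clock gene per1a had 1.52 ± 0.259 CPM in mutant and 2.03 ± 0.295 CPM in wildtype embryos, without overlap (-0.44, edgeR adjusted p = 0.414). The value of hsd11b2 was 0.079 (adjusted p = 0.691). In the list 14 of 19 tested genes had a log2 fold change above 0, beside 9912 of all 20229 genes tested. The steroid synthesis gene star had 7.63 ± 0.691 CPM in mutant and 6.50 ± 1.23 CPM in wildtype embryos (adjusted p = 0.390), and the receptor gene nr3c1 a log2 fold change of 0.02. Of 11 tested thyroid hormone genes 2 were higher and 2 lower (median 0.12), or 36.4% called beside 11.7% of all genes tested. They were klf9, listed here too as a thyroid hormone target, the receptor genes thraa (0.72, adjusted p = 0.0431) and thrb (-0.39, adjusted p = 0.0164), and pax2a (-0.30, adjusted p = 0.0174), whose factor also acts in the eye, brain and kidney. The thraa call ended without 5 of the single libraries, and those of thrb and pax2a without 3 each. DESeq2 called 2 and limma-voom 3 of the thyroid hormone list. This list was chosen with earlier results of these data known, and its share of calls was not tested. With DESeq2 the calls of isl1, chga, trh, nr5a2, thraa and pax2a also ended (adjusted p of 0.0504 to 0.195). The thyroglobulin gene tg had 0.909 ± 0.313 CPM in mutant and 1.44 ± 0.613 CPM in wildtype embryos (-0.68, adjusted p = 0.348).

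**Figure D4:**
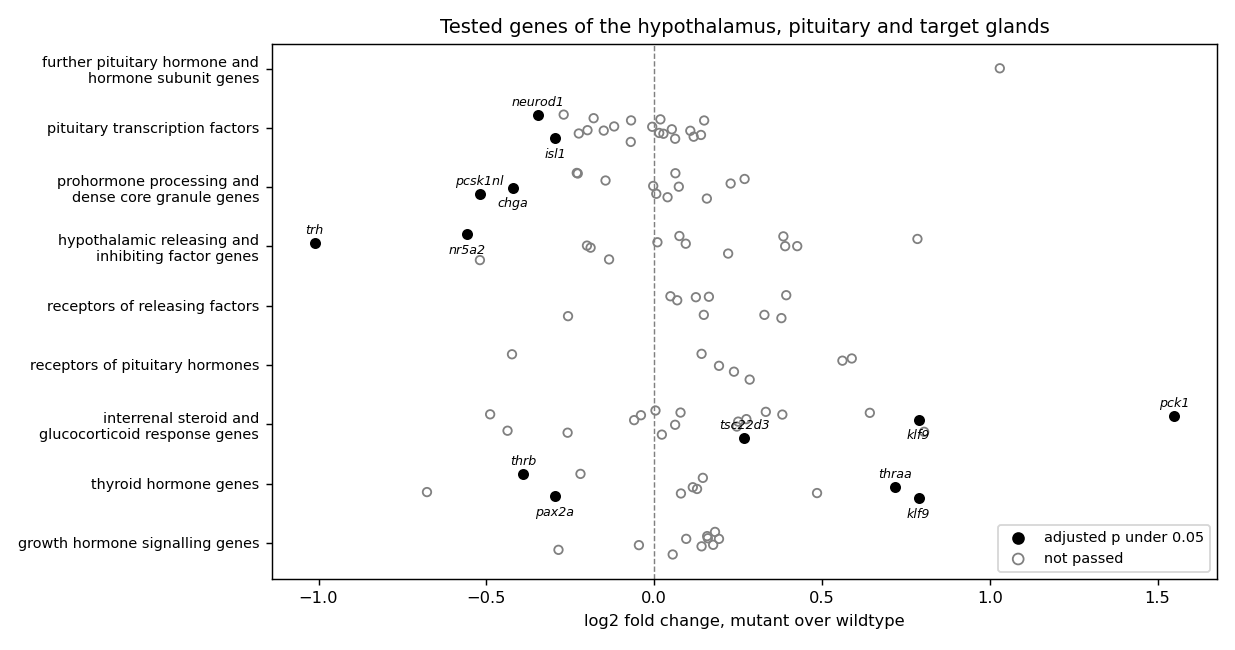
Log2 fold change, mutant over wildtype, of the tested genes of 9 lists for the hypothalamus, pituitary and target glands; filled points passed an edgeR adjusted p of 0.05 and are named, open points did not. Each point is a gene, its height within a list has no meaning, and the called genes run from -1.01 for trh to 1.55 for pck1.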

How the data were processed

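RNA of pooled whole embryos was enriched for poly-A transcripts, per the labels' protocols. STAR, RSEM and genome build danRer11 are named in the submitters' processing notes, as is DESeq2; versions and annotation are not given in the sources used here. The authors deposited expected counts per gene and library, not scaled between libraries. The columns were matched to samples by genotype and number. Expected counts were rounded and fitted in R 4.3.3 with edgeR 4.0.16 (filterByExpr, minimum count 10, TMM, robust quasi-likelihood test, Benjamini-Hochberg over all rows fitted). Members below the filter were read from the same fit without it, an alternative to the planned fit. CPM use TMM totals; standard errors are the absolute log2 fold change over the square root of F. Alternatives were other scalings and filters, a fit that is not robust, a replicate block, each library left out, DESeq2 1.42.0 and limma-voom (limma 3.58.1). The code was tested on simulated data. Members and lists were chosen with earlier results of these data known. Named genes are the members, dnajc21, called genes of each list (up to 6 per direction, otherwise the 2 with the smallest p) and the 5 most alike in profile; others named were picked after their values were seen. Of 155 listed context genes, 148 had a usable row; 100 were tested. Gene neighbours and overlaps were read from the RefSeq gene table of GRCz12tu, whose coordinates are not printed because the count table uses another build, and no sequences were used. Plots used matplotlib 3.10.9 under Python 3.11.15.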

Additional observations from a re-analysis of the deposited data

How the results depend on the processing

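None of the 6 members given a fold passed an adjusted p of 0.05 under any alternative run; the smallest of 75 adjusted p-values was 0.301. The sign of prl turned without mutant replicate 2 (0.048) or wildtype replicate 3 (0.088), its log2 fold change ranging from -0.13 to 0.088 with single libraries left out; the cause was not tested. The other 5 kept their sign under every alternative. A mean of at least 1 CPM left prl alone of the members. Of the 100 context genes tested 12 were called, beside 11.7% of all genes tested. DESeq2 called 7 of the 100, among them fkbp5, which edgeR did not call. With single libraries left out 3 to 12 were called (7, 5 and 3 without mutant replicates 1, 2 and 3, and 7 without wildtype replicate 1 or 2). Besides DESeq2, limma-voom ended the calls of chga, nr5a2, thraa and trh, a fit without robust weights those of nr5a2, thraa and trh, and library totals or either other filter that of trh. Calls over all genes numbered 2372, against 1507 by DESeq2 and 1242 to 2658 with single libraries left out. No sign of pairing by replicate number was seen. Deviations of same-numbered libraries from their group means correlated at -0.0357, -0.00198 and 0.0264 for numbers 1 to 3. Differently numbered ones correlated at -0.0691 to 0.0709. With so few libraries this cannot show whether same-numbered pools shared a clutch or batch. With the replicate block 2470 genes, 12 context genes and 0 members were called, and prl had a log2 fold change of -0.036; of the named context genes only trh lost its call there (adjusted p = 0.0605). Depth limits all members, prl the least, and the spread of prl was itself close to its counting error.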
